A study of Mus musculus with 24 samples.

Results

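Superoxide is made in the heart by NADPH oxidases and removed by superoxide dismutases. The 9 genes described here are the oxidase subunits Cybb, Cyba, Nox4, Ncf1, Ncf4 and Rac2 and the dismutases Sod1, Sod2 and Sod3. They were taken by gene symbol from the 14912 genes of the table, and all 9 were present and passed the filter on low values. RNA-seq was performed on left ventricles of male wild-type C57BL/6J mice in 2 groups of 12 samples. The hypertensive-LVH group received angiotensin II (ANG II) at 1500 ng per kg and minute for 7 days, and the control group received saline for the same time. Both groups carried a subcutaneous osmotic mini-pump, and blood was flushed from all hearts with saline. The age of the mice is not stated in the sources used here. The comparison asks how the infusion altered the left ventricle.

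Levels are given in FPKM, the fragments of a gene relative to transcript length and to the size of the library. The deposited FPKM had been shifted and scaled gene by gene within 4 sets of samples (in each group the samples 1 to 3, then 4 to 6, 7 to 9, and 10 to 12), and 0.766% of all values were below 0. No value of the 9 genes was below 0. Because the adjustment differed from gene to gene, an order of levels, a share or a ratio between genes describes the deposited values only. The same holds for a level relative to markers. Correlations of log2(FPKM + 1) between samples of a group ranged from 0.964 to 0.996, and the sums of FPKM ranged from 460715 to 567727. Sequencing depth is not stated, so the counting error behind a low value such as that of Nox4 is unknown. The samples 4 to 6 stood apart. Their 3 control samples held negative values of the collagen genes Col1a1, Col1a2 and Col3a1, the lowest being -59.5 FPKM for Col1a1, and their difference between the groups was the largest of the 4 sets for each of the 9 genes other than Cyba and Sod1. The main results below are therefore also given without the samples 4 to 6 of both groups. The tissue label held in the markers, since the summed level of 8 cardiomyocyte genes was between 31728 and 52002 FPKM in every sample.

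The phagocyte NADPH oxidase passes electrons from NADPH to oxygen through a membrane core made of Cybb (gp91-phox, the catalytic subunit) and Cyba (its partner p22-phox), and works once cytosolic subunits, Ncf1 and Ncf4 among them, and a Rac GTPase have joined the core. Nox4 is another catalytic subunit, which also pairs with Cyba, is active without the cytosolic subunits and releases mainly hydrogen peroxide. The dismutases turn superoxide into oxygen and hydrogen peroxide at different places, Sod1 with copper and zinc in the cytosol, Sod2 with manganese in mitochondria, and Sod3 outside the cell, and ANG II is a well-known activator of the oxidases in heart and vessels.

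Of the 9 genes, 6 passed an adjusted p-value of 0.05 (limma, Benjamini-Hochberg over 14026 genes), where 33.5% of all tested genes did. Ncf1, Ncf4, Rac2 and Nox4 were higher in the hypertensive-LVH group, where 20.9% of all tested genes were. Sod1 and Sod2 were lower, where 12.6% of all tested genes were. The 4 higher genes also had an absolute log2 fold change over 0.5 and so counted as differentially expressed genes, where 5.92% of all tested genes did. Cybb, Cyba and Sod3 did not pass. The values of the groups overlapped for all 9 genes, and only 0.756% of tested genes had groups without overlap. The median log2 fold change of the 9 genes was 0.49, the value of Sod3, against 0.05 for all tested genes, and the genes went both ways. Without the samples 4 to 6, Ncf1 and Sod2 alone passed, 2 of 9 genes, where 20.0% of all tested genes did. The median of the 9 genes was then 0.19, against 0.0051 for all tested genes.

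**Figure D1:**
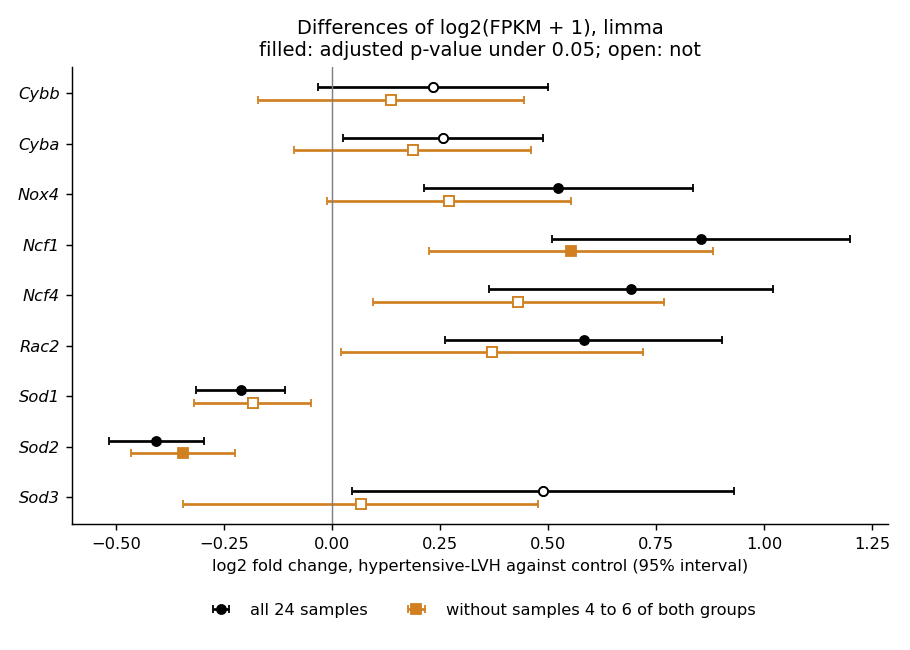
Log2 fold change of each gene between the hypertensive-LVH and control groups on the log2(FPKM + 1) scale, with the 95% interval of limma, for all 24 samples (circles) and without the samples 4 to 6 of both groups (squares). Filled symbols passed an adjusted p-value of 0.05. Ncf1 and Sod2 are filled in both fits, and Sod3 moves from 0.49 to 0.07.

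The stretches of 250 bases before the start sites of the gene that rose most (Ncf1), of the catalytic subunit (Cybb) and of the 2 dismutases that fell are shown, to set an oxidase gene that rose and one that did not pass the test beside dismutases that fell. They are from RefSeq (build GRCm38.p6), which gave a stretch for 6 of the 9 genes (not for Ncf4, Rac2 and Sod3). The start sites are those of RefSeq, and those of Cybb, Sod1 and Sod2 lie inside the genes as GENCODE draws them. All are written 5′ to 3′ on the strand of the gene, and capitals mark a motif.
Ncf1 (chr5:134229626-134229875, minus strand): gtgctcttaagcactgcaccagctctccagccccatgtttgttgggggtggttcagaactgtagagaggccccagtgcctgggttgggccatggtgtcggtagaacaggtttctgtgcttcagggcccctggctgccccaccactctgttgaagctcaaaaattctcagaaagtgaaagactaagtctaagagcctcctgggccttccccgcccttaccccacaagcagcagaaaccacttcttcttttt
Cybb (chrX:9469325-9469574, minus strand): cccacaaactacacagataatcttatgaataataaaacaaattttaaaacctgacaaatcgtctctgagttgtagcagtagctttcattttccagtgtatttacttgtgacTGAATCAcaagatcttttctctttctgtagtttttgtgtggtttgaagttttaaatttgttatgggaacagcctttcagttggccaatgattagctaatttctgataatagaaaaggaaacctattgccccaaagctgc
Sod1 (chr16:90220512-90220761, plus strand): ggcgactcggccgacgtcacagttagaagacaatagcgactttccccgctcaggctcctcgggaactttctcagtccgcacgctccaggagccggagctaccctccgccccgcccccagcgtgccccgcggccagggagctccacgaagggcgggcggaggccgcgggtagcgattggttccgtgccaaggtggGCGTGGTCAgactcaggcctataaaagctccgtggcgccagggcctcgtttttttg
Sod2 (chr17:13007589-13007838, plus strand): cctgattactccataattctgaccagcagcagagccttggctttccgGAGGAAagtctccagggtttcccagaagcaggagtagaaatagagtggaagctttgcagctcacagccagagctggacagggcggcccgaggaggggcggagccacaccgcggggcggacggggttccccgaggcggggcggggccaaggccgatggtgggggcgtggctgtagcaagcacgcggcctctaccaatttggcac
The letters searched on both strands were GAGGAA, the core bound by PU.1 and other ETS factors, TGACNNNGC, the core of the antioxidant response element, and TGANTCA, bound by AP-1. These motifs do not overlap in the stretches. Cybb held TGANTCA starting 139 bases before its start site, Sod1 held TGACNNNGC on the opposite strand starting 56 bases before, and Sod2 held GAGGAA starting 203 bases before. The stretches of Ncf1, Cyba and Nox4 held none of these letters. Of 32851 stretches of this length, 6.75% held TGANTCA, 10.2% TGACNNNGC and 23.3% GAGGAA. A match is a description of letters only.

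Among the membrane subunits, Nox4 was upregulated, while Cybb and Cyba did not pass the test. Nox4 lies on chromosome 7 (chr7:87246096-87398710, GRCm38). Nox4 ranged from 0.600 to 4.04 FPKM with a median of 1.64 among the hypertensive-LVH samples, and from 0.190 to 1.56 FPKM with a median of 1.08 among the controls. The groups overlapped, with 7 hypertensive-LVH samples above the highest control sample and 3 control samples, all of the samples 4 to 6, below the lowest hypertensive-LVH sample. The log2 fold change of Nox4 was 0.52 ± 0.15 (SE, adjusted p = 0.0102). Without the samples 4 to 6 it was 0.27 (adjusted p = 0.165).

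Cybb, the catalytic subunit of phagocytes, lies on chromosome X (chrX:9435252-9487771). Its level ranged from 4.80 to 17.5 FPKM with a median of 8.33 in the hypertensive-LVH group, compared with 6.16 to 10.1 FPKM and a median of 7.48 in the control group. Most of the spread came from hypertensive-LVH samples 6 and 8, at 15.2 and 17.5 FPKM, and sample 9, at 4.80 FPKM. All 12 control samples lay within the range of the hypertensive-LVH samples, although 10 of 12 hypertensive-LVH samples were above the control median. The log2 fold change of Cybb was 0.23 ± 0.13 (SE, adjusted p = 0.163), and it passed when hypertensive-LVH sample 9 was left out (0.31, adjusted p = 0.0422). Without the samples 4 to 6 it was 0.14 (adjusted p = 0.542). Cyba (chr8:122424776-122432930), the shared partner of Cybb and Nox4, was the most abundant of the 6 oxidase subunits. Cyba ranged from 29.5 to 64.5 FPKM with a median of 45.4 in the hypertensive-LVH group, compared with 31.2 to 54.6 FPKM and a median of 37.8 in the control group. The highest control sample lay above 8 of the 12 hypertensive-LVH samples, and the lowest sample of all belonged to the hypertensive-LVH group. For Cyba the log2 fold change was 0.26 ± 0.11 (SE, adjusted p = 0.0781). Leaving out hypertensive-LVH sample 9 (0.29, adjusted p = 0.0444), hypertensive-LVH sample 12 (0.32, adjusted p = 0.0192) or control sample 3 (0.30, adjusted p = 0.0392) brought it past the threshold. It was 0.35 (adjusted p = 0.0400) without the samples 10 to 12, and 0.19 (adjusted p = 0.334) without the samples 4 to 6.

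**Figure D2:**
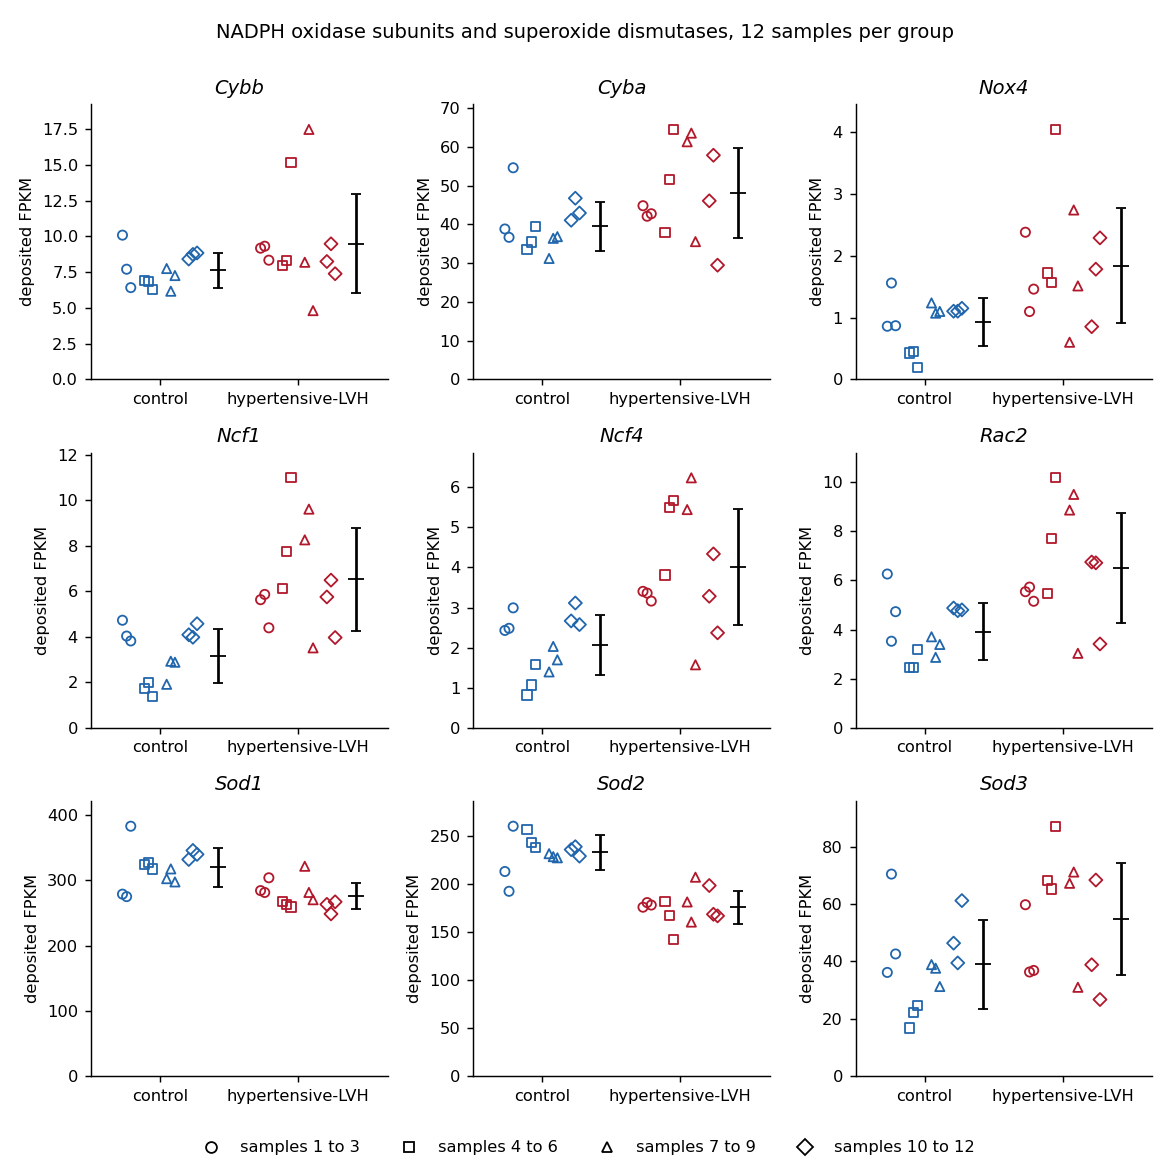
Deposited FPKM of each gene in the 12 control samples (blue) and 12 hypertensive-LVH samples (red), with the mean and SD at the right of each group and a symbol for each set of samples. The control samples 4 to 6 (squares) are the lowest control samples for Nox4 and Sod3, and for Sod2 10 of 12 hypertensive-LVH samples sit below all control samples.

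Ncf1, Ncf4 and Rac2, the 3 cytosolic oxidase subunits among the 9 genes, rose. Ncf1 (p47-phox, the organizer that carries the cytosolic subunits to the core; chr5:134220053-134229625) ranged from 3.51 to 11.0 FPKM with a median of 5.99 in the hypertensive-LVH group, compared with 1.37 to 4.73 FPKM and a median of 3.37 in the control group. All 12 hypertensive-LVH samples were above the control median, and 9 were above the highest control sample. Its log2 fold change of 0.85 ± 0.17 (SE, adjusted p = 4.74e-04), or 1.81-fold on the FPKM + 1 scale, was the largest of the 9 genes, and it was 0.55 (adjusted p = 0.0177) without the samples 4 to 6. Ncf4 (p40-phox, which binds a phosphoinositide of phagosomes; chr15:78244801-78262580) ranged from 1.57 to 6.24 FPKM with a median of 3.61 in the hypertensive-LVH group, compared with 0.817 to 3.11 FPKM and a median of 2.23 in the control group. All but 2 of the hypertensive-LVH samples exceeded the highest control sample, and these were samples 9 and 12. The log2 fold change of Ncf4 was 0.69 ± 0.16 (SE, adjusted p = 0.00194), against 0.43 (adjusted p = 0.0652) without the samples 4 to 6.

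Rac2, the Rac GTPase of blood cells (chr15:78559167-78572783), ranged from 3.03 to 10.2 FPKM with a median of 6.22 in the hypertensive-LVH group, compared with 2.46 to 6.26 FPKM and a median of 3.61 in the control group. The same samples 9 and 12 were the lowest of the hypertensive-LVH group, and 6 hypertensive-LVH samples exceeded all control samples. For Rac2 the log2 fold change was 0.58 ± 0.16 (SE, adjusted p = 0.00606), against 0.37 (adjusted p = 0.126) without the samples 4 to 6. Rac1, the Rac GTPase that most cells use, rose from a median of 112 to 120 FPKM (log2 fold change 0.14 ± 0.05, SE, adjusted p = 0.0209). Nox1, a catalytic subunit of other tissues, was at or below 0.212 FPKM in every sample and was not tested. Cybc1, which helps the core to mature, was not analysed here.

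Among the dismutases, Sod1 and Sod2 fell and Sod3 did not pass the test. Sod2 (chr17:13006846-13040063) ranged from 142 to 207 FPKM with a median of 177 in the hypertensive-LVH group, compared with 193 to 261 FPKM and a median of 234 in the control group. All 12 hypertensive-LVH samples were below the control median, and 10 were below the lowest control sample. On the log2 scale the fold change of Sod2 was -0.41 ± 0.05 (SE, adjusted p = 6.69e-06), and it was -0.35 (adjusted p = 5.96e-04) without the samples 4 to 6. It passed in every fit that left out a set of samples, between -0.44 and -0.35.

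Sod1 (chr16:90220754-90226329), the most abundant of the 9 genes, ranged from 249 to 322 FPKM with a median of 269 in the hypertensive-LVH group, compared with 275 to 383 FPKM and a median of 321 in the control group. Of the hypertensive-LVH samples, 11 of 12 were below the control median. Its log2 fold change was -0.21 ± 0.05 (SE, adjusted p = 0.00249), a difference of 0.864-fold. It missed the threshold without the samples 4 to 6 (-0.18, adjusted p = 0.0520) and without the samples 10 to 12 (-0.15, adjusted p = 0.0672). Sod3 (chr5:52363791-52371418), the extracellular enzyme, ranged from 26.7 to 87.2 FPKM with a median of 62.5 in the hypertensive-LVH group, compared with 16.8 to 70.5 FPKM and a median of 38.3 in the control group. Its hypertensive-LVH samples fell around 2 levels, with 5 between 26.7 and 38.8 FPKM and 7 between 59.8 and 87.2 FPKM. The log2 fold change of Sod3 was 0.49 ± 0.21 (SE, adjusted p = 0.0802), and it passed without hypertensive-LVH sample 9 (0.55, adjusted p = 0.0477) or 12 (0.57, adjusted p = 0.0372) or without control sample 2 (0.57, adjusted p = 0.0336). It was 0.70 (adjusted p = 0.0400) without the samples 1 to 3, 0.72 (adjusted p = 0.0320) without the samples 10 to 12 and 0.07 (adjusted p = 0.843) without the samples 4 to 6.

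Differences within the sets were also recovered as they were before the adjustment, which was possible for 12033 genes including all 9. Here 7 of 9 genes passed (exact permutation test within the sets, adjusted over these genes), where 30.3% of all recovered genes did. These were the 6 genes that passed in the deposited values, and Cybb. Cybb was higher by 2.52 FPKM on average (adjusted p = 0.0186) and in all 4 sets, by 0.193, 4.59, 4.50 and 0.813 FPKM. In the samples 1 to 3, the hypertensive-LVH sample was the higher in only 5 of the 9 pairs with a control sample. Without the samples 4 to 6, Cybb did not pass (adjusted p = 0.188, exact permutation test). In the deposited values its difference in the samples 10 to 12 was -0.293 FPKM. Ncf1 was higher by 3.53 FPKM (adjusted p = 0.00288), with 0.653 FPKM in the samples 1 to 3, 7.53 in 4 to 6, 4.50 in 7 to 9 and 1.44 in 10 to 12. Nox4, Ncf4 and Rac2 were likewise higher in all 4 sets, by means of 1.03, 1.82 and 2.45 FPKM (adjusted p = 0.00725, 0.00906 and 0.0191). In the samples 1 to 3, however, their differences were only 0.353, 0.333 and 0.06 FPKM. There the hypertensive-LVH sample was the higher in 5, 7 and 5 of the 9 pairs with a control sample. Sod2 had a lower mean in all 4 sets, with differences of -32.8, -80.5, -51.7 and -58.2 FPKM (adjusted p = 0.00178). In the samples 1 to 3, however, the hypertensive-LVH sample was the higher in 3 of 9 pairs. As deposited, these hypertensive-LVH samples all lay below the lowest control sample for Sod2. Sod1 had a lower mean in all 4 sets, by a mean difference of -41.4 FPKM (adjusted p = 0.0336). In the samples 1 to 3 its difference was -17.4 FPKM, although the hypertensive-LVH sample was the higher in 6 of 9 pairs. Cyba and Sod3 were higher in 2 sets and lower in the others, Cyba by 15.2 and 18.8 against -2.10 and -0.657 FPKM and Sod3 by 67.5 and 18.7 against -10.8 and -4.40 FPKM (adjusted p = 0.185 and 0.141). Before the adjustment and without the samples 4 to 6, Ncf1 and Sod2 again passed (adjusted p = 0.0304 and 0.0177, exact permutation test), 2 of 9 genes, where 15.7% of all recovered genes did.

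**Figure D3:**
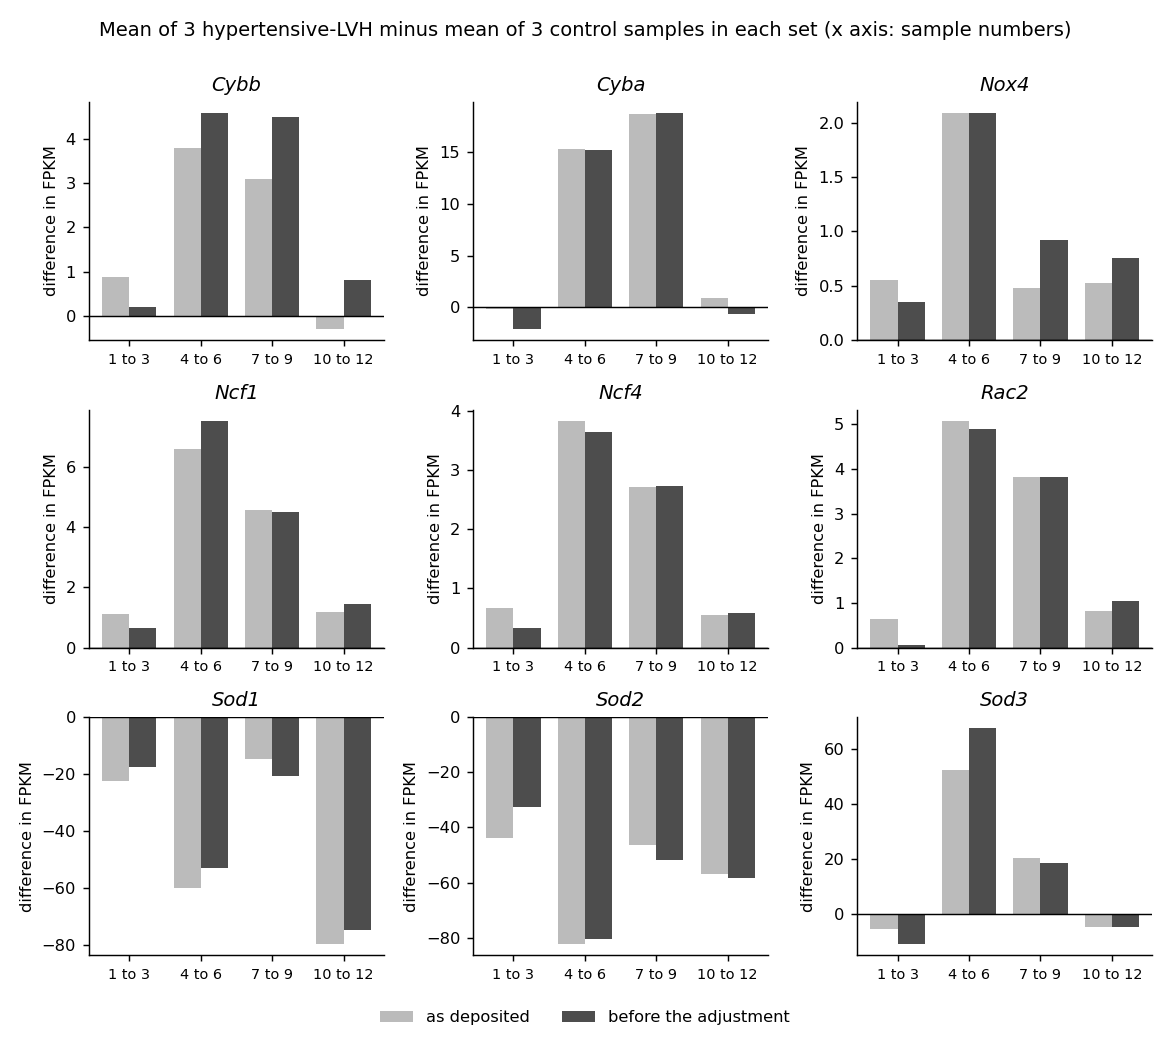
Mean of the 3 hypertensive-LVH samples minus the mean of the 3 control samples of each set, in FPKM, as deposited (light bars) and before the adjustment (dark bars). The 5 oxidase genes other than Cyba are above 0 in all 4 sets before the adjustment, Rac2 by only 0.06 FPKM at samples 1 to 3. Their largest bars are at samples 4 to 6. Sod1 and Sod2 are below 0 in all 4 sets.

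By the medians of the deposited values, the order of the levels was the same in both groups, with Sod1 first, followed by Sod2, Sod3, Cyba, Cybb, Rac2, Ncf1, Ncf4 and Nox4. Sod1 was above Sod2, and Sod2 above Sod3, in 12 of 12 samples of each group with no overlap. Sod3 and Cyba could not be ordered, since Sod3 was the higher in 7 of 12 hypertensive-LVH and 5 of 12 control samples. Rac2 and Ncf1 were also close, with Rac2 the higher in 4 of 12 hypertensive-LVH and 10 of 12 control samples. Nox4 was below Ncf4 in 12 of 12 samples of each group, although their ranges overlapped. The 3 dismutases together held 507 ± 26.4 FPKM (SD) in the 12 hypertensive-LVH samples and 593 ± 43.4 FPKM in the 12 control samples. Sod1 made up 54.5% ± 2.42 of this sum in the hypertensive-LVH group and 54.0% ± 1.32 in the control group. The share of Sod2 was 34.8% ± 3.30 against 39.4% ± 2.10, and that of Sod3 was 10.8% ± 3.87 against 6.61% ± 2.73.

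Ratios of the deposited values within a sample showed which partners differed by unlike amounts in these values (7 ratios, permutation test over samples, adjusted over the 7). Sod2 fell more than Sod1, with a difference of -0.20 in the log2 ratio of Sod2 to Sod1 (adjusted p = 0.00686, higher than the control median in 2 of 12 samples). Sod3 gained against both, by 0.70 relative to Sod1 (adjusted p = 0.0163) and by 0.89 relative to Sod2 (adjusted p = 0.0101), each in 10 of 12 samples. Rac2 gained 0.44 relative to Rac1 (adjusted p = 0.0163), in 10 of 12 samples. The ratios Cybb to Nox4 (-0.29, adjusted p = 0.0696), Ncf4 to Ncf1 (-0.16, adjusted p = 0.0589) and Cybb to Cyba (-0.02, adjusted p = 0.848) did not pass. No ratio passed without the samples 4 to 6, where the adjusted p-values of the ratios named as different were 0.120 for Sod2 to Sod1, 0.375 for Sod3 to Sod1, and 0.200 for Sod3 to Sod2 and for Rac2 to Rac1. The gain of Sod3 on Sod2 was 2.35 in the samples 4 to 6, 0.89 in 7 to 9, 0.19 in 10 to 12 and 0.16 in 1 to 3. Relative to Sod1 it was 2.05, 0.63, 0.17 and -0.05 in the same order of sets.

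Markers of macrophages, cells that make the phagocyte oxidase, were higher as well in the fit of all samples. All 12 of 12 macrophage markers passed the test as higher, where 20.9% of all tested genes did, with log2 fold changes from 0.35 to 0.92. Without the samples 4 to 6, 2 of the 12 markers passed, where 20.0% of all tested genes passed in either direction. Their median was then 0.41, against 0.59 in all samples. Their summed level ranged from 390 to 1104 FPKM with a median of 663 in the hypertensive-LVH group, compared with 284 to 629 FPKM and a median of 409 in the control group. In whole ventricles, more cells of a type and more RNA per cell cannot be told apart. Relative to the mean log2 level of these markers, the deposited values of the oxidase genes did not move alike (5 genes, permutation test, adjusted over the 5). Ncf1 was higher by 0.26 (adjusted p = 0.00113) and above the control median in 12 of 12 samples. Cybb and Cyba had differences of -0.36 and -0.34 (adjusted p = 0.00113 for both), and 0 of 12 hypertensive-LVH samples were above the control median for either gene. Ncf4 differed by 0.10 (adjusted p = 0.302) and Rac2 by -0.01 (adjusted p = 0.880). Without the samples 4 to 6 the differences of Ncf1, Cybb and Cyba were 0.15, -0.26 and -0.21 (adjusted p = 0.0461 for each). Within the sets, Ncf1 gained 0.14, 0.58 and 0.33 on the markers in the samples 1 to 3, 4 to 6 and 7 to 9, and differed by -0.01 in 10 to 12. Cybb differed from the markers by 0.02 in the samples 1 to 3 and by -0.65, -0.46 and -0.34 in the others, and Cyba by -0.11, -0.71, -0.21 and -0.31. The adjustment, which differed from gene to gene, enters these relative levels, and its part in them was not tested. For Cybb the difference between the groups in the samples 10 to 12 was -0.293 FPKM as deposited and 0.813 FPKM before the adjustment.

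**Figure D4:**
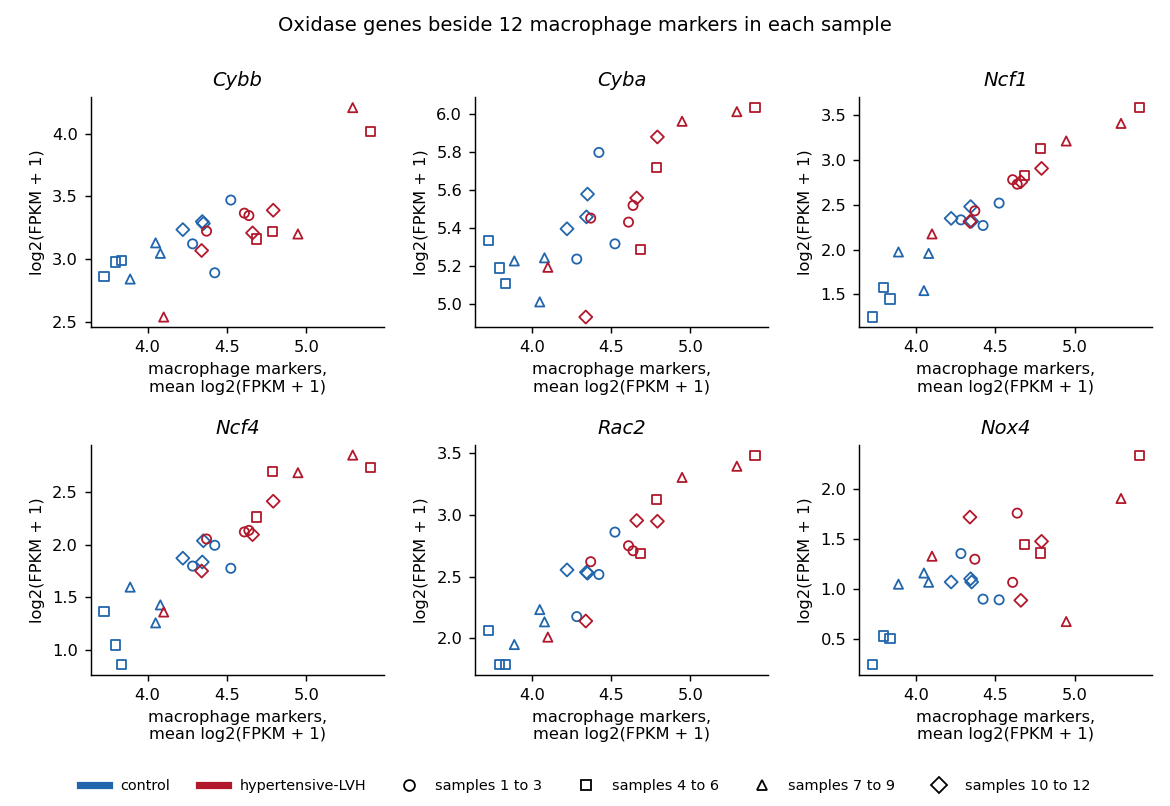
Level of 6 oxidase genes, as log2(FPKM + 1), against the mean log2(FPKM + 1) of 12 macrophage markers in each sample, with controls in blue, hypertensive-LVH samples in red and a symbol for each set. Ncf1, Ncf4 and Rac2 climb with the markers, and Nox4 scatters. Cybb and Cyba climb as well, but their level relative to the markers is above the control median in 0 of 12 hypertensive-LVH samples.

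Other cell markers also differed between the groups. Their counts stand beside 20.9% of all tested genes higher and 12.6% lower, and 20.0% in either direction without the samples 4 to 6. Fibroblast markers had 4 of 8 higher (Lum, Col1a1, Col1a2 and Col3a1) and summed levels of 708 to 2639 FPKM against 142 to 1017 FPKM. The mean log2 level of the fibroblast markers differed by 4.39 in the samples 4 to 6, where values below 0 of the collagen genes in the controls had been replaced by 0, and by 0.14, 0.30 and 0.23 in the samples 1 to 3, 7 to 9 and 10 to 12. Only 1 of 8 fibroblast markers was higher without the samples 4 to 6. Cardiomyocyte markers had 4 of 8 lower (Tnni3, Myl2, Pln and Actc1), with summed levels of 31728 to 45274 FPKM against 41700 to 52002 FPKM, and 3 lower and 1 higher without the samples 4 to 6. Red blood cell genes had 5 of 5 higher in both fits, with summed levels of 779 to 6443 FPKM against 92.2 to 2949 FPKM. Neutrophils, which also use the phagocyte oxidase, had low marker levels, with 1 of 9 tested markers higher (Csf3r) and a summed level of all 11 markers of 3.27 to 28.6 FPKM against 5.58 to 56.6 FPKM. No marker was at 0 in all samples. The part of any of these cells in the differences of the 9 genes was not tested.

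Across the 24 samples, after the mean of each group in each set was removed, 63 relations among the 9 genes and the markers were computed (permutation within group and set, adjusted over the 63). The macrophage markers were related to Cybb (Pearson r = 0.909, p = 2.80e-04, adjusted p = 0.00882, and Spearman rho = 0.813, p = 1.70e-04, adjusted p = 0.00536). They were also related to Rac2 (r = 0.891, p = 4.90e-04, adjusted p = 0.0103, and rho = 0.816, p = 0.00126, adjusted p = 0.0265) and to Ncf1 (r = 0.899, p = 0.00160, adjusted p = 0.0252, and rho = 0.782, p = 0.00352, adjusted p = 0.0444). Leaving out the 2 samples most distant from the median marker level, r was 0.811, 0.799 and 0.797. The relations of the macrophage markers to Cyba (r = 0.771, adjusted p = 0.0613) and Ncf4 (r = 0.786, adjusted p = 0.0639) did not pass. Without the 2 farthest samples these were r = 0.695 and 0.487. Among the 36 pairs of the 9 genes, 1 passed, Cyba with Ncf4 (r = 0.861, p = 3.00e-05, adjusted p = 0.00189, and rho = 0.909, p = 7.00e-05, adjusted p = 0.00441, with r = 0.827 without the 2 farthest samples). Sod2 was related to the cardiomyocyte markers (r = 0.728, p = 0.00224, adjusted p = 0.0282, and rho = 0.690, p = 0.00176, adjusted p = 0.0277, with r = 0.624 without the 2 farthest samples). Nox4 was related neither to the macrophage markers (r = 0.299, p = 0.496, and rho = 0.184, p = 0.547) nor to the fibroblast markers (r = 0.568, p = 0.0705, adjusted p = 0.148, and rho = 0.637, p = 0.0193, adjusted p = 0.0919) at the threshold.

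The genes whose deviations were most like those of each gene, among 11283 genes, are given as a description by Pearson r over the 24 samples. Cybb was most like Ptprc, the pan-leukocyte phosphatase CD45 (0.958), and Cyba most like Tyrobp, an adaptor of myeloid receptors (0.962), and Lyz2, lysozyme (0.922). Ncf1 was most like Nckap1l, the WAVE complex subunit of blood cells (0.938), Ncf4 like B4galt5, a galactosyltransferase (0.927), and Rac2 like Selplg, the P-selectin ligand of leukocytes (0.954). Nox4 stood with Chmp2b, an ESCRT subunit (0.949), and Bnip3l, a mitophagy receptor (0.945). Sod2 was most like Fitm1 (0.934), a lipid droplet protein of muscle, followed by the mitochondrial phosphate carrier Slc25a3 (0.933) and the mitochondrial peroxiredoxin Prdx3 (0.933). Sod1 had the weakest likeness, with Mrpl23 (0.851), a mitochondrial ribosomal protein, and Ndufa3 (0.845), a subunit of complex I. Sod3 was most like Ptms, parathymosin (0.936), and the calcium-binding S100a11 (0.935).

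Of the further genes of the oxidase that passed, all but 1 were higher. Of 30 other oxidase genes and assembly factors, 26 were in the table and 24 were tested, 12 rose and 1 fell, so that 13 of 24 passed beside 33.5% of all tested genes, with a median log2 fold change of 0.17. Past a log2 fold change of 0.5 were Sh3pxd2b (0.71 ± 0.13, SE, adjusted p = 1.85e-04), an organizer related to Ncf1, Pak1 (0.50 ± 0.10, adjusted p = 4.68e-04), a kinase that Rac activates, and Arhgdib (0.50 ± 0.16, adjusted p = 0.0180), which holds Rac inactive in the cytosol of blood cells. The 1 gene that fell was Poldip2, a partner of Nox4 and Cyba (-0.26 ± 0.05, adjusted p = 7.58e-04), from a median of 94.0 to 78.1 FPKM. When the samples 4 to 6 were left out, 6 of these genes passed, beside 20.0% of all tested genes. Of the other sources of superoxide and hydrogen peroxide, 14 were tested, 2 rose (Ero1l and Shc1) and 2 fell (Maob and Alox5), so that 4 of 14 passed beside 33.5% of all tested genes, with a median of 0.04. Of these, 2 passed without the samples 4 to 6. Alox5, the first enzyme of leukotriene synthesis, fell from a median of 8.95 to 5.75 FPKM (-0.55 ± 0.10, adjusted p = 1.54e-04).

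The genes of a list drawn up for the removal of hydrogen peroxide, the product of the dismutases, moved in both directions. Not every gene of the list is itself an enzyme that removes hydrogen peroxide. Of 23 genes tested, 6 rose and 8 fell, beside 20.9% higher and 12.6% lower of all tested genes, and the median log2 fold change was -0.01. Glutathione peroxidases went both ways. Gpx1, the peroxidase of cytosol and mitochondria, ranged from 80.7 to 134 FPKM with a median of 103 in the hypertensive-LVH group, compared with 53.9 to 91.8 FPKM and a median of 71.7 in the control group (0.53 ± 0.09, SE, adjusted p = 1.59e-04). Gpx3, the secreted enzyme (0.91 ± 0.28, adjusted p = 0.0152), and Gpx7, of the endoplasmic reticulum (0.65 ± 0.15, adjusted p = 0.00221), also rose. Gpx4, which acts on lipid peroxides, fell from a median of 695 to 623 FPKM (-0.21 ± 0.07, adjusted p = 0.0303). Gpx8 (0.35 ± 0.07, adjusted p = 6.68e-04), Prdx4 (0.27 ± 0.10, adjusted p = 0.0382) and Txn1 (0.27 ± 0.07, adjusted p = 0.00475) made up the rest of the genes that rose. The other genes that fell were Prdx5 (-0.58 ± 0.08, adjusted p = 1.51e-05), Glrx5, Txn2, Txnrd2, Prdx3, Prdx2 and Prdx6, with log2 fold changes from -0.43 for Glrx5 to -0.23 for Prdx6. Catalase (Cat) had medians of 119 and 124 FPKM (-0.05 ± 0.05, adjusted p = 0.437) and Prdx1 had medians of 172 and 189 FPKM (-0.08 ± 0.06, adjusted p = 0.327). Leaving out the samples 4 to 6, 11 of these genes passed, beside 20.0% of all tested genes.

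**Figure D5:**
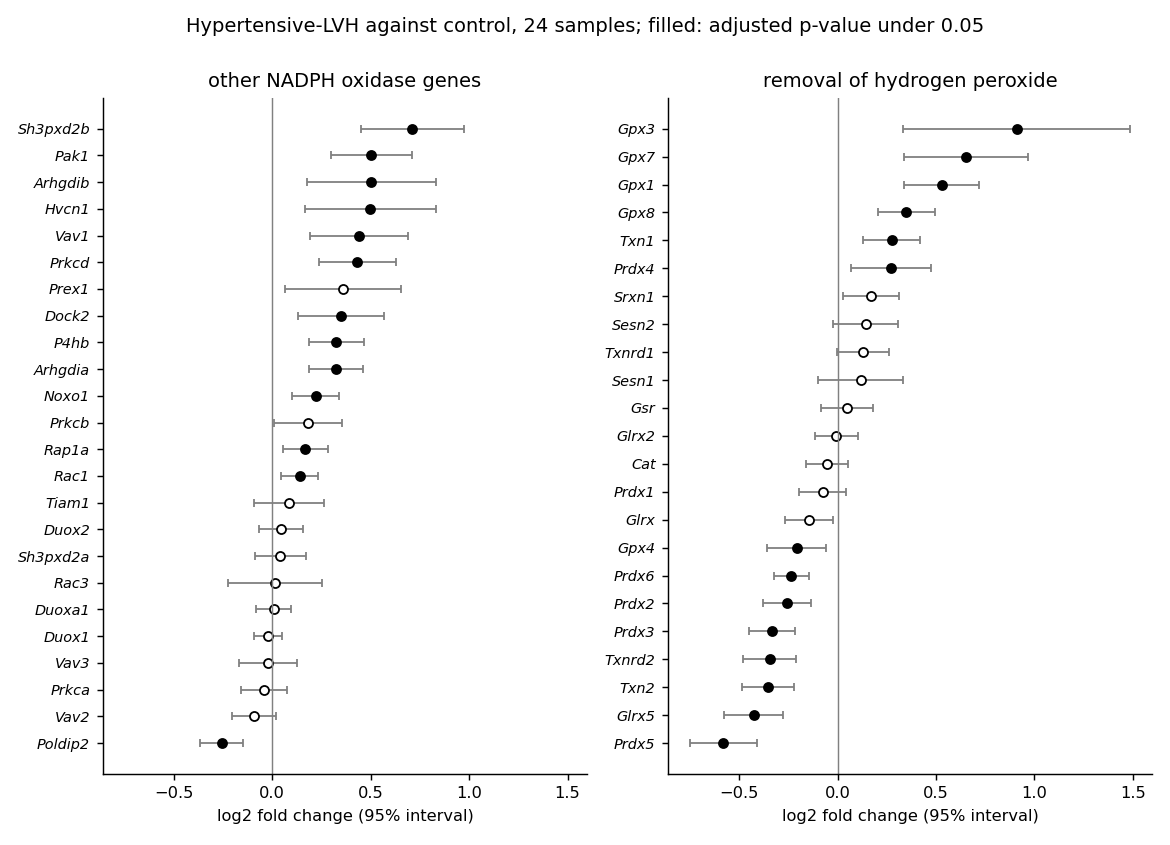
Log2 fold change with its 95% interval for the 24 tested genes of the oxidase list (left) and the 23 genes of the list for the removal of hydrogen peroxide (right), all 24 samples. Filled symbols passed an adjusted p-value of 0.05, with 12 right of 0 and 1 left of 0 in the oxidase list, and 6 right and 8 left of 0 among the peroxide genes.

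Of 11 tested genes of a list drawn up for the supply of metal to the dismutases, 4 rose (Atp7a, Slc31a2, Slc39a14 and Atp2c1) and 3 fell (Cox17, Slc11a2 and Mtch2), beside 20.9% higher and 12.6% lower of all tested genes, and none was past a log2 fold change of 0.5. Mtch2, a protein insertase of the outer mitochondrial membrane, has no known part in the supply of metal. Of the 11 genes, 4 passed without the samples 4 to 6 and 2 without the samples 1 to 3. Ccs, the chaperone that loads copper into Sod1, stood at a median of 15.9 FPKM in both groups (-0.01 ± 0.04, SE, adjusted p = 0.882), with a 95% interval of -0.10 to 0.08. Slc39a14, a transporter of manganese and zinc, rose by 0.19 ± 0.05 (adjusted p = 0.00792).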

How the data were processed

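Per the tissue labels, the samples are left ventricles (the extraction label instead names CRC cells as the RNA source), for which the authors deposited an FPKM table with 1 column a sample. HISAT, Bowtie2 and RSEM are named in the submitters' processing notes, and the genome build is not given in the sources used here. The deposited values are not plain FPKM but carry an adjustment gene by gene in 4 sets of 3 samples per group, seen from 215 to 541 exact ties per pair within sets and 0 between sets. The methods name no such step, in which a group difference was set aside and kept. Of 16 samples per group in the study, 4 per group were not analysed here. The study calls the samples biological replicates.

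After values below 0 had been replaced by 0, log2(FPKM + 1) was tested with limma 3.58.1 (R 4.3.3, intensity trend, all 24 samples) for 14026 genes with a mean of at least 0.1 FPKM. Adding 1 understates changes of low genes. Within-set differences before the adjustment were solved from steps of 0.01 FPKM for 80.7% of genes and tested by all 160000 relabelings. Permutation tests drew 100000 resamples. All tests were two-sided. Other steps used scipy 1.17.1, pandas 2.3.3 and numpy 2.4.6 in Python 3.11.15. On simulated data, limma called 200 of 200 changed genes (log2 change 1.5, more than any of the 9 genes showed) and 9 unchanged ones, among 11456 genes in all. Positions are from GENCODE vM21 (GRCm38).

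The 9 genes and the lists were chosen with earlier results of these data known, and 1 item is not reported here. Named beside them are list genes past both thresholds (at most 4 per direction), Nox1, Rac1, Cybc1, Ccs, Cat, Gpx1, Prdx1, and the most alike genes by correlation. Other list genes named were chosen after their values were seen. Alternatives were another pseudocount, other filters, normalizations and tests, the set as a term, the replicate number as a block, and leaving out each sample or set.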

Additional observations from a re-analysis of the deposited data

How the results depend on the processing

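Without the samples 4 to 6, 2 of the 9 genes and 2802 of all genes passed, and 6 genes of the oxidase list, 2 of the other sources and 4 of the metal supply list. Ratio differences were then 0.30 for Rac2 to Rac1, -0.16 for Sod2 to Sod1, 0.25 for Sod3 to Sod1 and 0.41 for Sod3 to Sod2, and none passed. The cause was not tested. Before the adjustment and without these samples, an alternative chosen after seeing the data, 2 of the 9 genes and 1889 of all genes passed, with 3, 2, 9 and 3 in the oxidase, other source, peroxide and metal lists. Nox4, Ncf4, Rac2 and Sod1 lost their call in both fits. Of all genes, 831 passed with an absolute log2 fold change over 0.5.

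With the replicate number as a block, 5 of the 9 genes passed, without Nox4 (0.52, adjusted p = 0.0507), as did 2824 of all genes and 8 of the oxidase list, and the ratios Rac2 to Rac1 (0.44), Sod3 to Sod1 (0.70) and Sod3 to Sod2 (0.89) missed the threshold (adjusted p = 0.0608 for each). The numbers pair nothing, since deviations of same-numbered samples correlated between -0.461 and -0.00483 and 0 of 12 samples correlated best with their own number.

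Without the samples 1 to 3, Ncf4 to Ncf1 passed (-0.21) and 2 genes of the metal list did. Without the samples 7 to 9, Cybb to Nox4 (-0.42) passed, Rac2 to Rac1 (0.35) and Sod3 to Sod1 (0.72) did not, and Cybb to Cyba turned to 0.054. Without the samples 10 to 12, Rac2 relative to macrophage markers turned to 0.037 and 4 metal genes passed, as with quantile normalization (4). With a pseudocount of 0.1, Cybb to Nox4 passed (-0.65) and Rac2 relative to the markers turned to 0.043.

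Leaving out each sample in turn gave -0.35 to -0.23 for Cybb to Nox4, -0.085 to 0.023 for Cybb to Cyba, -0.19 to -0.11 for Ncf4 to Ncf1 and -0.032 to 0.019 for Rac2 relative to the markers. Cybb to Nox4 passed without hypertensive-LVH sample 7 or control sample 2, and Ncf4 to Ncf1 without hypertensive-LVH sample 3 or 5 or control sample 1, 2, 4 or 12. Between 6 and 9 of the 9 genes passed in these fits, with all 9 without hypertensive-LVH sample 9. Sod2 and Ncf1 passed in every fit tried. Quantile normalization, median-ratio scaling, other filters, no intensity trend, the set as a term, the pseudocount of 0.1 and a Wilcoxon rank-sum test changed the call and direction of none of the 9 genes. Because the offset of each set is unknown, levels cannot be compared between sets.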

Other observations

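Some regulators of the oxidase beyond its subunits, named after their values were seen, were also higher in the hypertensive-LVH group and others did not pass the test. Hvcn1, the proton channel that balances the charge moved by the oxidase, ranged from 0.694 to 3.25 FPKM with a median of 1.54, against 0.0972 to 1.60 FPKM with a median of 1.02 in the control group (log2 fold change 0.50, adjusted p = 0.0202, limma). Vav1, an activator of Rac in blood cells, had medians of 2.22 and 1.58 FPKM (0.44, adjusted p = 0.00710), and Dock2, another activator of Rac, had medians of 2.12 and 1.56 FPKM (0.35, adjusted p = 0.0146). Prkcd, a kinase that phosphorylates Ncf1, had medians of 13.0 and 9.80 FPKM (0.43, adjusted p = 0.00129). The related kinases Prkcb (0.18, adjusted p = 0.0993) and Prkca (-0.04, adjusted p = 0.599), which also act on Ncf1, did not pass. Before the adjustment Vav1, Dock2 and Prkcd were higher in all 4 sets and Hvcn1 in 3 of 4. Activators of Rac did not all differ, since Vav2 (-0.09, adjusted p = 0.187), Vav3 (-0.02, adjusted p = 0.835) and Tiam1 (0.09, adjusted p = 0.452) did not pass.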
